A study of Mus musculus with 8 samples.

Results

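The genes studied, 10 in number, serve sodium, potassium and water transport in the collecting duct, and they were followed in embryonic mouse kidneys among 31185 genes tested. They were Fxyd4, Scnn1a, Scnn1b, Scnn1g, Hsd11b2, Kcnk1, Kcnj1, Aqp2, Aqp3 and Avpr2, chosen by their known roles in the principal cell and found on the array through the RefSeq accessions of its probes. The 10 genes had 11 probes, 2 of them for Scnn1a. Whole kidneys were microdissected at E13.5 from embryos of a mixed CD1 and C57BL/6 background. The mutants are labelled UB HDAC1,2-/-, with both histone deacetylases deleted in the ureteric bud (UB), and the controls were wild type. Each of 4 biological replicates paired 1 mutant with 1 wild type RNA, and each pair was hybridised to 2 two-colour arrays with the dyes exchanged, 8 arrays in all. What drives the deletion in the bud, and how many embryos made up an RNA, are not given in the sources used here. Whether the RNAs came from separate litters is not stated either, so that p-values measure the spread between these 4 pairs.

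The ureteric bud is the epithelial tube that branches inside the metanephric mesenchyme and becomes the collecting duct. In the adult duct, principal cells take up sodium through the epithelial sodium channel (ENaC) at the apical membrane and export it by the sodium pump at the basolateral membrane, under the control of aldosterone. They secrete potassium through ROMK, and they take up water through aquaporins when vasopressin acts on its V2 receptor. The kidneys studied here are at an early branching stage, when these transport functions have not matured.

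Replicate 2 stood apart from the others. Its log2 ratios of labelled mutant over labelled wild type had an SD of 0.51 over all genes, against 0.18 to 0.19 in the other replicates. In replicate 2, 11.6% of the genes were below -0.7, against 0.264% to 0.988% in the others. Leaving it out moved some mean ratios of named genes and some list medians by more than 1.5 times or turned their sign. These are shown by values without it, or by replicate, beside the result or among the limits at the end. Replicates 1 and 2 lay on 1 slide and replicates 3 and 4 on another. Hdac2, the deleted gene that was measured, stood at 0.45, 0.40, 0.61 and -0.43 in replicates 1 to 4, so that it did not check the genotype labels. Hdac1 is not analysed here. Whole kidney RNA holds Hdac2 of cells outside the bud.

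The sign of every ratio below follows the dye labels, and the authors' deposited table has the opposite sign. Of the transport genes, 3 are in that table, and the authors' deposited table gives Fxyd4 at -1.73, Scnn1g at -0.68 and Kcnk1 at -0.51 (log2). The scanner ratios as labelled, averaged over the 8 arrays, were 1.73 for Fxyd4, 0.68 for Scnn1g and 0.51 for Kcnk1. Over the 266 entries of the authors' deposited table that have 1 spot on the array, 266 had the sign opposite to the labels. The table does not state which genotype is the numerator. "Labelled mutant" and "labelled wild type" therefore name the dye channels, and every direction below turns if the authors' numerator was the mutant.

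The bases before the transcript start are shown for Fxyd4 and Scnn1g, whose levels did not overlap between the labelled genotypes, and for Avpr2 and Aqp2, which had mixed signs. Each run is the 250 bases upstream of a RefSeq transcript start, 5' to 3' on the strand of the gene, in GRCm38.p6. Fxyd4 is at chr6:117937336-117937585 on the minus strand, Scnn1g at chr7:121734229-121734478, Avpr2 at chrX:73891852-73892101 and Aqp2 at chr15:99578806-99579055, all 3 on the plus strand. The windows of Fxyd4 and Avpr2, and those searched for Kcnk1 and Kcnj1, lie inside the gene spans given below. The window of Scnn1g reaches into its span. The spans of these genes thus begin further upstream than the starts used, and motif positions refer to the starts used. Capitals mark matches on either strand to any of 5 short motifs. AGAACA is a half-site of steroid receptors such as the mineralocorticoid receptor. AGATAA is a motif of GATA factors, among them Gata2. AGGAAG is a motif of ETS factors, among them Elf5. AACCGGTT is the motif of Grainyhead factors. CCAGNNNNNNCCAG is a pair of half-sites bound by Tfcp2l1.
Fxyd4: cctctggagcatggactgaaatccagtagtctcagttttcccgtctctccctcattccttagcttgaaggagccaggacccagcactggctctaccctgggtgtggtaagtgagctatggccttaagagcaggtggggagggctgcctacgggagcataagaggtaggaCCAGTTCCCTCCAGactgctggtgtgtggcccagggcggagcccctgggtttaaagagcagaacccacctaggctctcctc
Scnn1g: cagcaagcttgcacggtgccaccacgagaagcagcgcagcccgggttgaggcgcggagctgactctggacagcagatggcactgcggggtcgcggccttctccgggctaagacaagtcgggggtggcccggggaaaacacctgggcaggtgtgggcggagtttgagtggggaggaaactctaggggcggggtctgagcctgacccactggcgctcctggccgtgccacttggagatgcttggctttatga
Avpr2: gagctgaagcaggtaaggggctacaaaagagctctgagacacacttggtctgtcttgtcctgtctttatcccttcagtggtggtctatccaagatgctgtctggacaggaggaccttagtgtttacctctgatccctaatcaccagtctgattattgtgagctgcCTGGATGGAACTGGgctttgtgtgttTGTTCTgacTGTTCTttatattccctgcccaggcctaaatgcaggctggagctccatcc
Aqp2: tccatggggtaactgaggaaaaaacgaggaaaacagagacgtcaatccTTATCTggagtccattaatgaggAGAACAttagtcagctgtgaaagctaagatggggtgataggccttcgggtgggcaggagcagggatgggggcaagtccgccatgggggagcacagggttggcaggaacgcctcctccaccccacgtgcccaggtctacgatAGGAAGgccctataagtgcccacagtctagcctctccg
The RefSeq table held such a window for 8 of the 10 genes. The Tfcp2l1 half-site pair was found in Fxyd4, from -81 to -68 relative to the start, and in Avpr2, from -85 to -72, and in 2.78% of 32851 promoter windows of the same length. The steroid receptor half-site was found in 3 of the 8 windows (Kcnj1, Aqp2 and Avpr2) against 16.1% of all windows, the ETS motif in 4 against 29.5%, and the GATA motif in 1 against 9.99%. In Kcnj1 a steroid receptor half-site overlapped an ETS match. No window of the 8 held the Grainyhead motif, which 0.116% of all windows held. These are matches of letters, which do not show that a factor binds.

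All 10 genes gave a signal at E13.5. Both channels passed the scanner's background flag on 8 of 8 arrays for 10 of the 11 probes. The median spot signal of Aqp2, the apical water channel that vasopressin moves to the membrane, was 18.2 to 179 times its local background in the RNA labelled wild type. For Fxyd4 this multiple was 5.39 to 11.8 in the RNA labelled wild type and 13.6 to 47.8 in the RNA labelled mutant. The second, dimmer probe of Scnn1a passed it on 5 of 8 arrays for the labelled mutant and on 8 of 8 for the labelled wild type. Over all non-control spots, 82.1% to 95.9% per array passed it for the labelled mutant, and 79.2% to 97.1% for the labelled wild type. Brightness is not used here to compare the levels of different genes.

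Fxyd4 differed most among the transport genes. The gene lies on chromosome 6 (GRCm38.p6, 117933558 to 117937714). Its protein, also called CHIF, is a small membrane protein that binds the sodium pump in the collecting duct and raises its affinity for sodium. The log2 level of Fxyd4 was 10.04, 9.79, 10.21 and 9.77 in the labelled mutant RNAs of replicates 1 to 4. In the labelled wild type RNAs it was 8.66, 8.36, 9.24 and 8.35. The groups did not overlap, with the lowest labelled mutant RNA above the highest labelled wild type RNA, and this non-overlap held for 0.986% of all genes. The log2 ratio was 1.38, 1.43, 0.97 and 1.42 in replicates 1 to 4, with a mean of 1.30 ± 0.22 (SD, n = 4), a 2.47-fold difference. As normalized here, replicate 3 had the smallest ratio and the highest labelled wild type level. In the scanner ratios Fxyd4 stood at 1.57, 1.90, 1.79 and 1.65 in replicates 1 to 4, with replicate 3 not the smallest. Among the 31185 genes only Cdh16 had a higher normalized mean ratio, so that 0.00641% of genes, Fxyd4 included, reached that of Fxyd4.

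The difference in Fxyd4 did not pass the threshold over all genes, with an adjusted p of 0.114 in limma (unadjusted p = 2.8e-05, 95% interval of the mean 1.05 to 1.55). All 8 arrays had a ratio above 0, with a mean of 1.18 where the mutant was in Cy5 and 1.43 where it was in Cy3. Single arrays ranged from 0.67 to 1.95 as normalized here, and the 2 arrays of replicate 4 stood at 0.90 and 1.95. Within slide 1 the mean was 1.41 and within slide 2 it was 1.20. In a fit of the 8 single arrays with a replicate block, limma's adjusted p for Fxyd4 was 0.0023, and 0.0094 with a term for the dye added after seeing the data. The estimated correlation of the block was -0.026, and 0.20 with the dye term, so that the first of these fits treated the 8 arrays of 4 RNA pairs nearly as independent. Without replicate 2 the mean was 1.26 (limma's adjusted p = 0.0569).

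**Figure D1:**
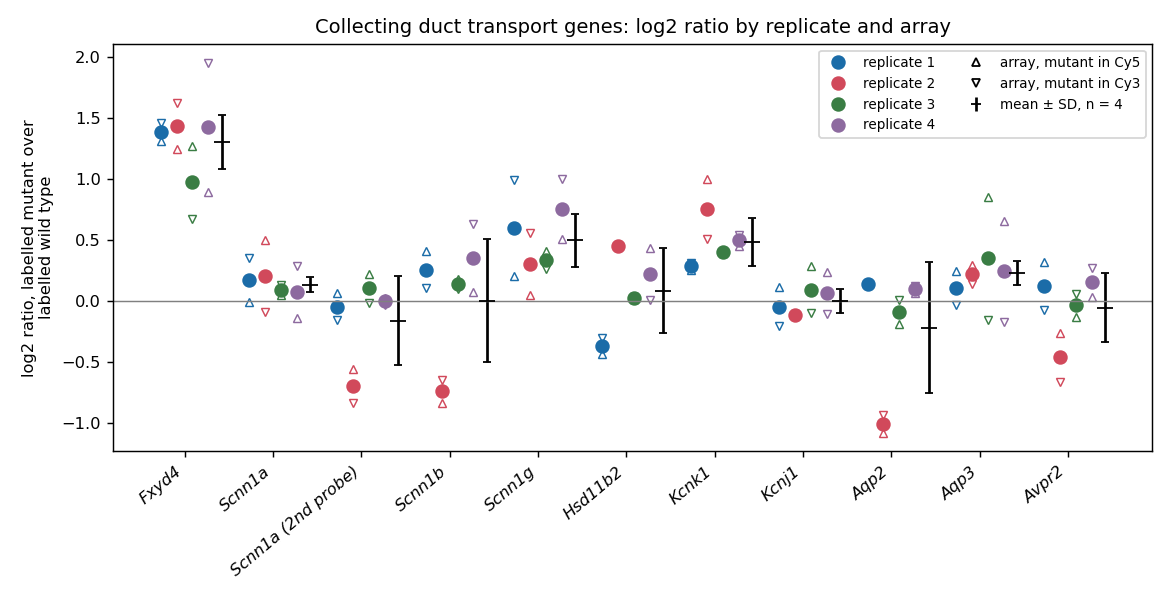
Log2 ratio of labelled mutant over labelled wild type (y axis) for each probe of the 10 transport genes (x axis). Filled circles are the 4 replicates, each the mean of its 2 arrays (open triangles), and bars are the mean ± SD. Fxyd4 lies above 0 on all 8 arrays, and the ratios of Aqp2 and Scnn1b in replicate 2 lie far below those of the other replicates.

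Of the 3 ENaC subunits, the gamma subunit had the highest ratio, and no difference between the subunits passed its test. ENaC is the amiloride-sensitive channel formed by the alpha, beta and gamma subunits, encoded by Scnn1a (chromosome 6, 125314271 to 125344943), Scnn1b (chromosome 7, 121865038 to 121918728) and Scnn1g (chromosome 7, 121734420 to 121768482). The log2 level of Scnn1g was 9.05, 9.15, 9.09 and 9.16 in the labelled mutant RNAs and 8.46, 8.85, 8.75 and 8.41 in the labelled wild type RNAs of replicates 1 to 4. The groups did not overlap, which held for 0.986% of all genes in this direction. Its log2 ratio was 0.60, 0.30, 0.33 and 0.75, with a mean of 0.50 ± 0.22 (SD, n = 4; limma unadjusted p = 0.0031, adjusted p = 0.4995), a 1.41-fold difference. Scnn1g stood above 0 on 8 of 8 arrays, at 0.29 with the mutant in Cy5 and at 0.70 with it in Cy3.

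Scnn1a had small ratios of one sign in the brighter of its 2 probes. They were 0.17, 0.20, 0.09 and 0.07 in replicates 1 to 4, with a mean of 0.13 ± 0.06 (SD, n = 4; limma adjusted p = 0.804), and 5 of 8 arrays were above 0. The dimmer probe had -0.05, -0.70, 0.10 and -0.0035, with a mean of -0.16 ± 0.36, and of 0.02 without replicate 2. The probes thus disagreed in sign, most in replicate 2. Levels overlapped between the labelled genotypes for both probes.

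Scnn1b had 1 replicate of the opposite sign. Its log2 ratio was 0.26, -0.74, 0.14 and 0.35 in replicates 1 to 4, with a mean of 0.00079 ± 0.50 (SD, n = 4; limma adjusted p = 0.9995, 95% interval -0.49 to 0.49). Without replicate 2 the mean was 0.25. The low ratio came from the labelled wild type RNA of replicate 2, at a log2 level of 9.55, while the other wild type RNAs were at 8.21 to 8.42 and the labelled mutant RNAs at 8.56 to 8.80. Within the replicates, Scnn1g stood above Scnn1b by 0.49 ± 0.37 and above Scnn1a by 0.36 ± 0.25 (SD, n = 4), higher in 4 of 4 replicates each. The exact two-sided sign-flip permutation p was 0.125 for both, the smallest that 4 replicates allow, and 0.2 after Benjamini-Hochberg adjustment over the 32 differences computed. Scnn1b minus Scnn1a was -0.13 ± 0.55, above 0 in 3 of 4 replicates (exact sign-flip permutation p = 1). Without replicate 2, Scnn1g stood above Scnn1b by 0.31, and Scnn1b above Scnn1a by 0.14.

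Hsd11b2 (chromosome 8, 105518746 to 105523988) is the enzyme that inactivates glucocorticoids in principal cells and so leaves the mineralocorticoid receptor to aldosterone. Its log2 ratio was -0.37, 0.45, 0.02 and 0.22 in replicates 1 to 4, with a mean of 0.08 ± 0.35 (SD, n = 4; limma adjusted p = 0.847, 95% interval -0.27 to 0.44). Without replicate 2 the mean was -0.04. Both arrays of replicate 1 were below 0 and both arrays of replicate 2 above 0. The levels overlapped, from 8.10 to 9.11 in the labelled mutant RNAs and from 8.08 to 8.89 in the labelled wild type RNAs.

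Of the potassium channels, Kcnk1 stood higher in the RNA labelled mutant and Kcnj1 did not differ by more than its spread. Kcnk1 (chromosome 8, 125993655 to 126030685) encodes TWIK1, a potassium channel with a pair of pore domains in each subunit, and Kcnj1 (chromosome 9, 32372418 to 32399197) encodes ROMK, the channel of potassium secretion. The log2 level of Kcnk1 was 10.36, 10.05, 10.48 and 10.70 in the labelled mutant RNAs and 10.07, 9.30, 10.09 and 10.21 in the labelled wild type RNAs. The mutant was the higher RNA in 4 of 4 pairs, although the groups overlapped. The log2 ratio was 0.28, 0.75, 0.40 and 0.50, with a mean of 0.48 ± 0.20 (SD, n = 4; limma unadjusted p = 0.0028, adjusted p = 0.489), a fold difference just under 1.4, and 8 of 8 arrays were above 0. Without replicate 2 the mean of Kcnk1 was 0.39. For Kcnj1 the log2 ratio was -0.05, -0.11, 0.09 and 0.07, with a mean of -0.0011 ± 0.10 (SD, n = 4; limma adjusted p = 0.997), and 0.04 without replicate 2. Its 95% interval ran from -0.17 to 0.16. With the mutant in Cy5 the mean of Kcnj1 was 0.13 and with the mutant in Cy3 it was -0.13.

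The water transport genes had no shared direction. Aqp2 lies on chromosome 15 (99579056 to 99584545). Aqp3 (chromosome 4, 41092724 to 41098183) encodes the basolateral water channel and Avpr2 (chromosome X, 73891765 to 73894428) the vasopressin V2 receptor. The log2 ratio of Aqp3 was 0.11, 0.22, 0.35 and 0.24 in replicates 1 to 4, with a mean of 0.23 ± 0.10 (SD, n = 4; limma unadjusted p = 0.0164, adjusted p = 0.728). With the replicate block over 8 arrays its unadjusted limma p was 0.0773, above the 0.05 used here. As normalized here, the sign of Aqp3 depended on the dye, at 0.51 with the mutant in Cy5 and -0.06 with it in Cy3. The scanner ratios of Aqp3 were above 0 on all 8 arrays, from 0.18 to 0.86, with a mean of 0.36. Aqp3 levels overlapped, from 9.74 to 10.32 in the labelled mutant RNAs and from 9.52 to 9.97 in the labelled wild type RNAs.

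Aqp2 and Avpr2 differed mainly in replicate 2. The log2 ratio of Aqp2 was 0.13, -1.01, -0.09 and 0.09 in replicates 1 to 4, with a mean of -0.22 ± 0.54 (SD, n = 4; limma adjusted p = 0.804) and of 0.04 without replicate 2. The labelled mutant RNA of replicate 2 had an Aqp2 log2 level of 10.76, against 11.38 to 11.96 in the other mutant RNAs and 11.29 to 11.83 in the wild type RNAs. That level averages 2 unlike arrays. With the mutant in Cy5 both median signals of Aqp2 were dim, at 850 for the mutant and 820 for the wild type. With the mutant in Cy3 they were 4908 and 7336.5. The Aqp2 ratios of these arrays were -1.08 and -0.94, so the low ratio need not mean a low mutant level. The log2 ratio of Avpr2 was 0.12, -0.46, -0.04 and 0.15, with a mean of -0.06 ± 0.28 (limma adjusted p = 0.873) and of 0.08 without replicate 2. Why replicate 2 stood apart was not tested.

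**Figure D2:**
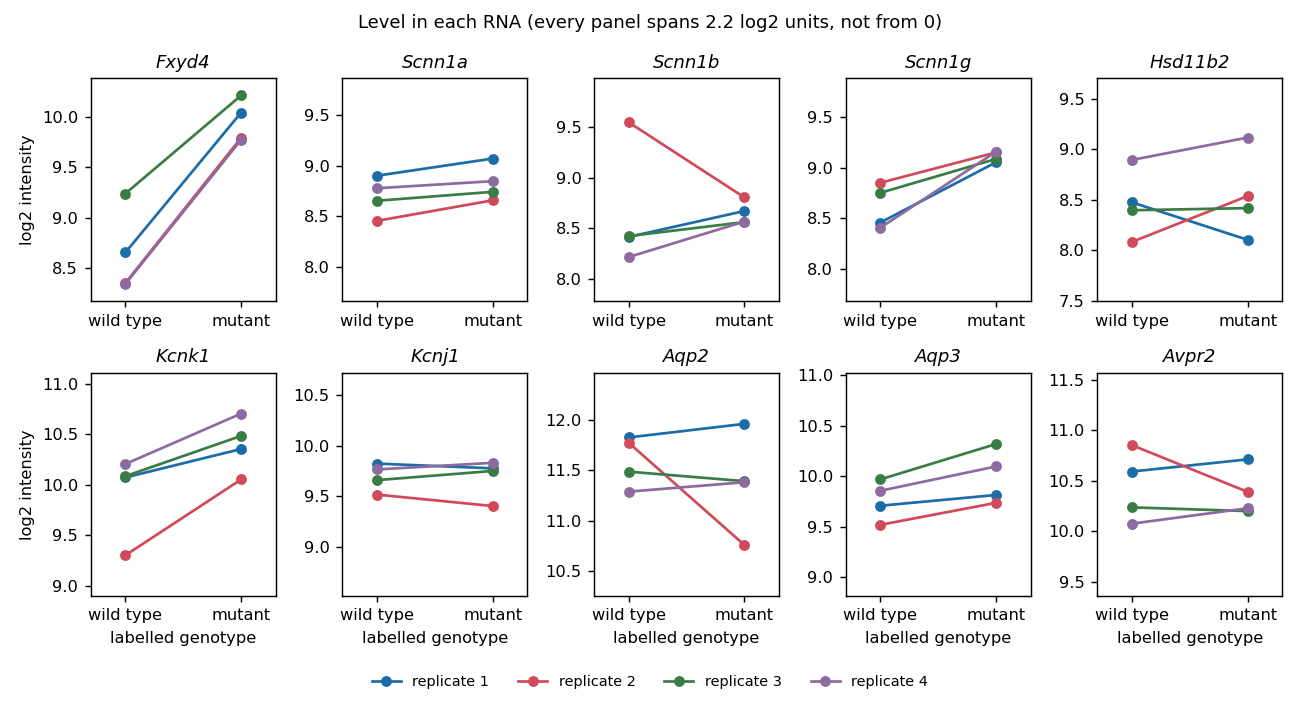
Log2 intensity (y axis, each panel spanning the same range, not from 0) of each gene in the labelled wild type and the labelled mutant RNA, with a line joining the RNAs of a replicate. The levels of Fxyd4 and Scnn1g do not overlap between the labelled genotypes, Kcnk1, Aqp3 and Scnn1a are higher in the labelled mutant RNA of every pair, and the lines of Scnn1b and Aqp2 slope down steeply in replicate 2.

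Over all 10 genes, 7 had a mean ratio above 0, against 44.6% of all genes, and the median was 0.11 against -0.02 for all genes. At an unadjusted limma p under 0.05, 4 were higher in the RNA labelled mutant (Fxyd4, Scnn1g, Kcnk1 and Aqp3), where 3.25% of all genes were, and 0 were lower, where 2.65% were. Of these, 2 (Fxyd4 and Scnn1g) were at least 1.4-fold higher, against 0.343% of all genes. Limma's adjusted test over all genes called 0 of them, and 0% of all genes in either direction. There were 5 with 4 of 4 replicates above 0 (Fxyd4, Scnn1a, Scnn1g, Kcnk1 and Aqp3), against 8.66% of all genes, and 0 with 4 of 4 below, against 5.80%. Without replicate 2, 9 of the 10 had a mean above 0, 5 had an unadjusted limma p under 0.05, and the median was 0.17. The genes were chosen with earlier results of these data known, so these shares describe them and are no test of the group.

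In the order of mean ratios, Fxyd4 was followed by Scnn1g, Kcnk1, Aqp3, Scnn1a, Hsd11b2, Scnn1b, Kcnj1, Avpr2 and Aqp2. The order, and so the direction of each pair, was taken from these same ratios. Of the 9 neighbouring pairs in this order, 2 had a difference of one sign in 4 of 4 replicates. Fxyd4 stood above Scnn1g by 0.81 ± 0.23 (log2, SD, n = 4), and Kcnk1 stood above Aqp3 by 0.25 ± 0.20, or by 0.16 without replicate 2. The exact sign-flip permutation p was 0.125 for both, the smallest possible, and 0.2 after adjustment. The other neighbours differed by less than their spread, among them Scnn1g and Kcnk1, by 0.01 ± 0.35, or 0.17 without replicate 2.

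Most markers of the bud epithelium also stood higher in the RNA labelled mutant. All 15 markers were measured, 13 of them with a mean ratio above 0, against 44.6% of all genes. At an unadjusted limma p under 0.05, 10 were higher, against 3.25% of all genes. Their median log2 ratio was 0.37, and 0.42, 0.35, 0.36 and 0.57 in replicates 1 to 4. The 3 of smallest p were Cdh16, the cadherin of kidney epithelium, at 1.33 ± 0.21 (SD, n = 4; limma adjusted p = 0.114), the keratin Krt8 at 0.85 ± 0.19 (0.167) and the adhesion molecule Epcam at 0.67 ± 0.14 (0.178). Below 0 stood Ret, at -0.07, and Wnt9b, at -0.17, which were at -0.45 and -1.22 in replicate 2. Without replicate 2, 15 of 15 markers were above 0. In all 4 replicates, the levels of the 15 markers were also summed as intensities, so that the brightest markers weigh most. The log2 of this sum was 16.53 to 16.88 in the labelled mutant RNAs and 15.86 to 16.14 in the labelled wild type RNAs. These ranges did not overlap. Nor did those of early nephron epithelium, also higher in the labelled mutant, or those of stroma and neural cells, which were lower in it. The number of bud cells and the RNA per bud cell cannot be told apart in whole kidney RNA, and the part of the bud markers in the ratios of the transport genes was not tested.

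Set against the bud markers within each replicate, the transport genes fell on both sides. Fxyd4 stood above the markers' median in 4 of 4 replicates, by 0.96, 1.09, 0.61 and 0.85, a mean of 0.88 ± 0.20 (log2, SD, n = 4). Scnn1g, at 0.07 ± 0.12, and Kcnk1, at 0.06 ± 0.24, were within their spread of it. Another 6 genes stood below it in 4 of 4 replicates. These were Aqp3 at -0.20 ± 0.16, Scnn1a at -0.29 ± 0.15, Scnn1b at -0.42 ± 0.44, Kcnj1 at -0.43 ± 0.11, Avpr2 at -0.48 ± 0.22 and Aqp2 at -0.64 ± 0.48. For Fxyd4 and these 6 the exact sign-flip permutation p was 0.125 each, the smallest possible, and 0.2 after adjustment over the 32 differences. The median of all genes tested was also below that of the markers, at 0.0039, -0.02, 0.0097 and 0.03 in replicates 1 to 4. How many of all genes lay below the markers' median in 4 of 4 replicates was not counted, so a place below it does not set these 6 apart. Hsd11b2 was at -0.34 ± 0.37 with 1 of 4 replicates above. Without replicate 2, Scnn1b was at -0.20, Aqp2 at -0.41, Scnn1g at 0.11, Kcnk1 at -0.06 and Hsd11b2 at -0.49 relative to the markers.

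Markers of other cell types were measured beside them. Over all genes, 3.25% were higher and 2.65% lower at an unadjusted limma p under 0.05. Urothelium, which also expresses ENaC and Aqp3, had a median log2 ratio of -0.0015 over 7 markers, with 1 higher at an unadjusted limma p under 0.05. The log2 of its summed intensities was 11.50 to 12.42 in the labelled mutant and 11.93 to 12.40 in the labelled wild type RNAs. The 4 measured markers of the loop of Henle and distal tubule, where Kcnj1 is also expressed, had a median of -0.04. Early nephron epithelium stood at 0.23 (6 markers, 3 higher). The log2 of its summed intensities was 14.20 to 14.38 in the labelled mutant and 13.85 to 14.11 in the labelled wild type RNAs. The median was lower for nephron progenitors, at -0.11 (7 markers) and stroma, at -0.19 (6 markers, 2 lower). Endothelium stood at 0.07 (6 markers, 1 lower), macrophages at -0.26 (7 markers, 4 lower and 1 higher), erythroid cells at -0.14 (5 markers), neural cells at -0.19 (4 markers, 1 lower) and adrenal cortex at 0.01 (4 markers). For stroma the log2 of the summed intensities was 17.00 to 17.23 in the labelled mutant and 17.24 to 17.48 in the labelled wild type RNAs. For neural cells it was 11.68 to 11.78 in the labelled mutant and 11.84 to 12.00 in the labelled wild type RNAs. Without replicate 2 the median was 0.04 for urothelium, 0.06 for loop of Henle and distal tubule, 0.04 for endothelium, -0.15 for macrophages, 0.03 for erythroid cells, -0.10 for neural cells and 0.0018 for adrenal cortex.

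Other genes of the same transport pathways showed no common shift. Over all genes, 44.6% were above 0, and 3.25% were higher and 2.65% lower at an unadjusted limma p under 0.05. Of 11 measured genes of the sodium pump and the FXYD family to which Fxyd4 belongs, 6 were above 0 and the median log2 ratio was 0.11. Atp1b1, the beta subunit of the pump, stood at 0.36 ± 0.17 (SD, n = 4; limma unadjusted p = 0.0065, adjusted p = 0.586). Fxyd6, a relative of Fxyd4, stood at -0.24 ± 0.18 (limma unadjusted p = 0.0352, adjusted p = 0.804), with its other probe at -0.05. The -0.24 came from -0.16, -0.49, -0.22 and -0.09 in replicates 1 to 4. Of 14 aldosterone and sodium channel regulators, 6 were above 0, 1 was higher and 3 were lower at an unadjusted p under 0.05, and the median was -0.16. Without replicate 2 the median of these regulators was 0.02, with 8 of 14 above 0.

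Among these regulators, the kinases Oxsr1, at -0.42 ± 0.17, and Wnk1, at -0.37 ± 0.16, had the smallest p. Both belong to the cascade that controls sodium chloride transport, and neither passed (limma adjusted p = 0.508 and 0.544). Another probe of Oxsr1 stood at 0.08, and those of Wnk1 ranged from -0.37 to 0.01. Prss8, the membrane protease that cleaves and activates ENaC, stood at 0.37 ± 0.26 (limma unadjusted p = 0.0203, adjusted p = 0.747).

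Of 14 other potassium channels and their subunits, 10 were above 0, 2 were higher and 0 lower at an unadjusted p under 0.05, and the median was 0.04. Kcnj16, the basolateral channel subunit Kir5.1, stood at 0.49 ± 0.07 (SD, n = 4; limma unadjusted p = 0.00031, adjusted p = 0.184), with values of 0.51, 0.58, 0.43 and 0.46 in replicates 1 to 4. Its other probes stood at 0.36 and 0.02. Kcne1, an accessory subunit of voltage-gated potassium channels, stood at 0.20 ± 0.12 (adjusted p = 0.804).

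Of 16 other genes of water and urea transport and vasopressin signalling, 8 were above 0, 2 were higher and 1 was lower at an unadjusted p under 0.05, and the median was -0.01, or 0.06 without replicate 2. Slc14a1, a urea transporter, stood at -0.22 ± 0.06 (SD, n = 4; limma adjusted p = 0.685), the vasopressin V1a receptor Avpr1a at 0.27 ± 0.20 (0.799) and Aqp1, the water channel of the proximal tubule, at 0.20 ± 0.16 (0.804). Another probe of Slc14a1 stood at -0.03. Of 10 intercalated cell genes, 3 were above 0 and 0 were at an unadjusted p under 0.05, with a median of -0.03. Rhbg, an ammonia transporter, had the smallest p of them at 0.10 ± 0.07 (adjusted p = 0.804). In replicate 2 the median of this list was -0.45, against 0.12, 0.03 and 0.07 in replicates 1, 3 and 4. Without replicate 2 the list's median was 0.04, with 8 of 10 genes above 0.

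Most transcription factors of the collecting duct stood higher in the RNA labelled mutant. Of 8 measured, 7 were above 0, against 44.6% of all genes, with a median of 0.33. At an unadjusted limma p under 0.05, 5 were higher, against 3.25% of all genes. Tfcp2l1 stood at 0.95 ± 0.15 (SD, n = 4; adjusted p = 0.114), the ETS factor Elf5 at 0.83 ± 0.17 (0.165) and Gata2 at 0.33 ± 0.10 (0.509). The other probes of Tfcp2l1 stood at 0.15 and 0.07. Grhl2, also among the 5, stood at 0.42, with its other probes at -0.02 and -0.03. This list and the bud markers were chosen with earlier results known. Gata3 and Emx2 are in both, so that the medians of these lists are not independent.

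**Figure D3:**
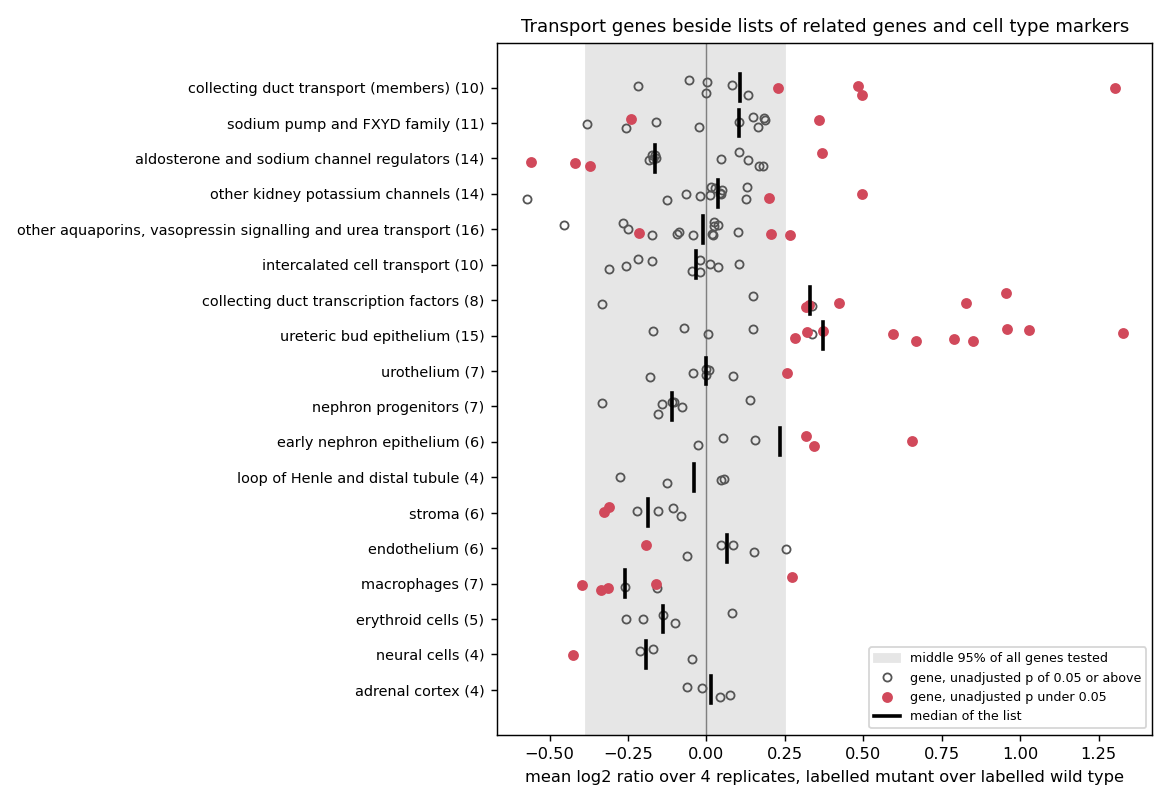
Mean log2 ratio of labelled mutant over labelled wild type (x axis) for each gene of the transport genes, the related pathway lists and the cell type markers (y axis, number measured in brackets). Filled points had an unadjusted limma p under 0.05, black bars are medians and the grey band holds the middle 95% of all genes. The transport genes have a median of 0.11 with Fxyd4 far to the right, while bud epithelium and collecting duct transcription factors have medians of 0.37 and 0.33.

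The genes whose ratios were most like those of Fxyd4 were Gsta3, Cdh16, Lrrc4, Mia and Krt7. Likeness was the root mean square difference of the 4 replicate log2 ratios, taken over 17047 named genes. It was 0.16 for Gsta3, a glutathione transferase with ratios of 1.22, 1.27, 0.92 and 1.20 in replicates 1 to 4, and from 0.35 to 0.41 for the others. Gsta3 also had its smallest ratio in replicate 3, as normalized here. With 4 points, this measure mostly ranks genes by the size of their mean ratio.

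**Figure D4:**
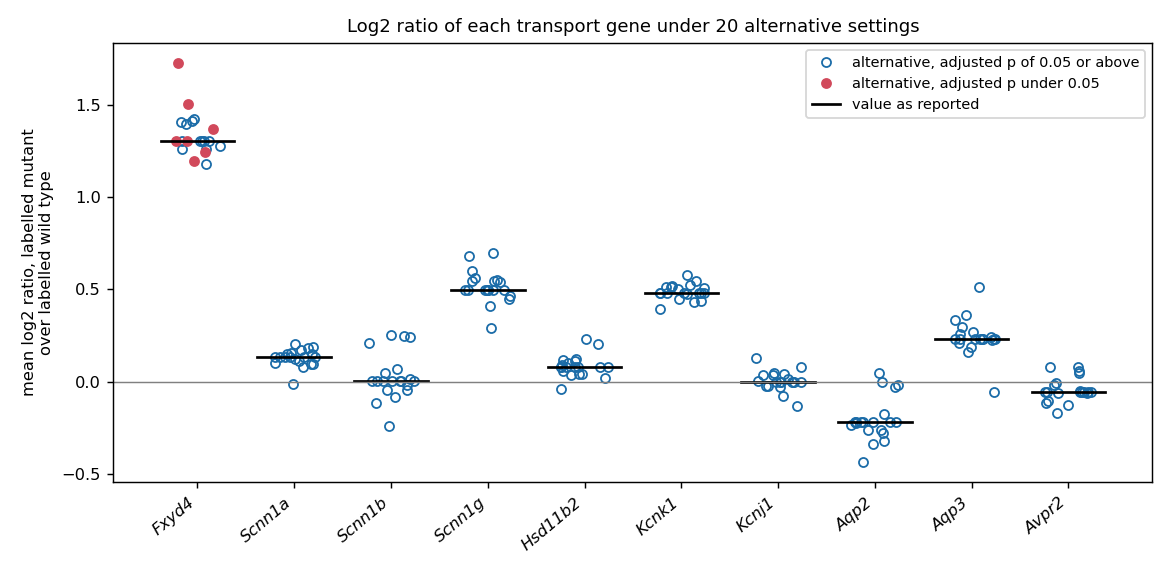
Mean log2 ratio of each transport gene (y axis) under 20 alternative settings (points) and as reported (black line), by gene (x axis). Filled points have an adjusted p under 0.05. Fxyd4 stays between 1.18 and 1.73 and passes in 7 of the 20, Scnn1g and Kcnk1 stay above 0 without passing, and Kcnj1, Scnn1b, Avpr2, Aqp2, Aqp3, Hsd11b2 and Scnn1a have points on both sides of 0.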

How the data were processed

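Two-colour Agilent arrays of whole E13.5 kidneys were analysed, 2 per replicate with exchanged dyes. Per the file headers, Feature Extraction 10.5.1.1 was the authors' scanner software. Intensity as deposited is a median over pixels, for the spot and for the area around it, before any normalization. Each deposited log ratio is a log10 of red over green that this software had corrected for background and dye. Deposited flags, of the unit other, are 0 or 1. Log2 ratios of 496 entries make up the authors' deposited table, whose name gives MeV 4.9, p 0.05 and 1.4-fold.

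Median signals were corrected by normexp (offset 50) and normalized by loess within arrays, with control and outlier spots at weight 0. Every ratio was expressed as labelled mutant over labelled wild type before averaging both dye orientations per replicate. The pairing comes from the labels, and after each dye orientation's own mean per gene was taken out, the 2 arrays of a replicate correlated at 0.26 to 0.54 across genes. Before that, their ratios correlated at 0.07, 0.70, -0.28 and -0.30 in replicates 1 to 4. Probes well above background in 1 channel or more on at least 4 of 8 arrays were kept (39522 of 41174), and the brightest stood for its gene. RefSeq accessions named 17115 of 31185 genes (GRCm38.p6, for names and promoters only). No spot was saturated, and the number of arrays limits the precision. Levels per RNA were taken after Aquantile scaling of the loess values. Replicate ratios were tested against 0 with limma 3.58.1 in R 4.3.3 (lmFit, eBayes), two-sided, and p-values were adjusted over all genes by Benjamini-Hochberg, with a threshold of 0.05. The test was tested on simulated data.

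Named genes were all 10 members, Hdac2, up to 3 genes of each pathway list with an unadjusted p under 0.05 or else the 1 of smallest p, the 3 bud markers of smallest p, and the 5 genes most like Fxyd4. Ret and Wnt9b were added as the bud markers below 0, Grhl2 for its other probes, and Gata3 and Emx2 as members of both lists. Members and lists were chosen with earlier results of these data known. Alternatives covered background, normalization, filter, probes, replicates, slide, dye and test. In whole kidneys, cell content and RNA per cell cannot be separated.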

Additional observations from a re-analysis of the deposited data

Results flagged for a closer look

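Of 33 groups of 4 values (the ratio, the labelled mutant level and the labelled wild type level of 11 probes) 3 held a sample far from the other 3, by the share of the whole range taken by its gap to the nearest other value. Chance flags about 1 in 20 such groups. For the ratio of Fxyd4 the share was 0.888, from replicate 3 at 0.97 against 1.38 to 1.43 in the others. The 2 arrays of replicate 3 were at 1.27 and 0.67, and those of replicate 4 at 0.90 and 1.95. In the scanner ratios replicate 3 of Fxyd4 was at 1.79, against 1.57, 1.90 and 1.65 in replicates 1, 2 and 4. For the labelled wild type level of Scnn1b it was 0.844, from replicate 2 at 9.55 against 8.21 to 8.42. For the labelled wild type level of Kcnk1 it was 0.852, from replicate 2 at 9.30 against 10.07 to 10.21. The 2 arrays of that RNA were unlike, with a median wild type signal of 269 where the mutant was in Cy5 and 917 where it was in Cy3. The Kcnk1 ratios of these arrays were 0.99 and 0.50.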

How the results depend on the processing

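Limma's count of genes past the adjusted threshold was 0, with 1840 at an unadjusted p under 0.05. It became 4 with no background correction, 3 with scanner ratios, 7 with median centring in place of loess (6 higher and 1 lower), 1 with the mutant in Cy5 alone and 104 within slide 2 alone. With array weights it was 78 (58 higher, 20 lower). With the replicate block it was 74 (58 higher, 16 lower), and 49 with the block and a dye term, added after seeing the data. Leaving out each replicate gave 0 to 11, the 11 without replicate 2. It stayed at 0 in the other alternatives, including the plain one-sample statistic. Without replicate 3, 893 genes had an unadjusted p under 0.05, and with the mutant in Cy3 alone 5939.

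Fxyd4 passed in 7 of 20 alternatives, those with no background correction, median centring, scanner ratios, array weights, slide 2 alone and both blocked fits, and its adjusted p ranged from 0.0023 to 0.936. The blocked fits changed no other adjusted call among the 10 genes, but the block without the dye term ended the unadjusted call of Aqp3. The median of the 10 genes ranged from 0.041 with the mean over probes to 0.23 in scanner ratios, and was 0.18 without replicate 1. Fxyd4, Scnn1g and Kcnk1 kept their sign in all 20. Scnn1a turned to -0.015 with the mean over probes. Aqp3 turned to -0.056 with the mutant in Cy3. Kcnj1 turned to 0.0018 at offset 16, 0.042 with median centring, 0.035 in scanner ratios, 0.048 with array weights, 0.078 within slide 2 and 0.13 with the mutant in Cy5. Scnn1b turned to -0.016 with median centring, -0.24 within slide 1 and -0.043 with the mutant in Cy5. Avpr2 turned to 0.080 with median centring, 0.049 with array weights and 0.058 within slide 2. Leaving out each replicate gave -0.12 to 0.25 for Scnn1b, -0.042 to 0.23 for Hsd11b2, -0.032 to 0.036 for Kcnj1, -0.34 to 0.044 for Aqp2 and -0.13 to 0.079 for Avpr2. The cause of these turns was not tested.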

Other observations

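In replicate 2, 6 of 10 intercalated cell genes were below -0.4 and the other 4 were within 0.1 of 0. Chosen after their values were seen, Foxi1 (a transcription factor of intercalated cells) stood at -0.84 in replicate 2 and at 0.20, -0.17 and 0.12 in replicates 1, 3 and 4. Atp6v1g3, a subunit of the proton pump, stood at -1.32 in replicate 2 and at -0.10, 0.09 and 0.09 in the others. Rhcg, an ammonia transporter, stood at -1.08 in replicate 2 and at -0.07, 0.03 and 0.10 in the others. Of all genes, 3603 (11.6%) were below -0.7 in replicate 2, and the share below -0.4 was not counted. Below -0.4 in replicate 2 were also 3 of the 10 transport genes, 4 of 11 sodium pump and FXYD genes and 2 of 15 bud markers. Whether the fall was particular to intercalated cell genes was not tested.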
